A study of Mus musculus with 30 samples.

Results

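The genes described here carry out the urea cycle and the breakdown of amino acids in the liver. They were listed by name in 8 pathway groups with 41 genes in all, and were found through the gene annotation of the array's probe sets. Of the 41, 37 had a probe set that lists that gene alone. All 37 passed the filter on weak signal, and they stand among 12156 genes tested. Gls2 (a glutaminase), Acmsd (an enzyme of the tryptophan pathway) and Sds and Sdsl (serine dehydratases) had no probe set that lists them alone and are not analysed here. The measured genes were 6 of the urea cycle, 4 of glutamate and the aminotransferases, 5 of tyrosine, 4 of tryptophan, 6 of the sulfur amino acids, 3 of the branched-chain amino acids, 4 of histidine, and 5 of the serine, glyoxylate, lysine and proline group.

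Gene expression was measured in the left liver lobe of male mice, 6 to 9 months old, that received perfluorooctane sulfonate (PFOS), a fluorinated surfactant that persists in the body, once a day by gavage for 7 days. PFOS was given as its potassium salt in 0.5% Tween 20 at 0, 3, or 10 mg/kg, and the 0 mg/kg groups received no PFOS. The wild-type (WT) mice were 129S1/SvlmJ and the mice without PPARα (Null) were 129S4/SvJae-Pparatm1Gonz/J, so that genotype and substrain cannot be told apart in any comparison between them. The Null allele is in the germline, and every cell type of the liver carries it. There were 5 mice in each of 6 groups and 1 Affymetrix array for each mouse, which makes 30 arrays. With so few arrays per group the errors given below are wide for small changes. All values are log2 expression, so a difference of 1 is a doubling. In bulk liver RNA, fewer cells of a type and less RNA per cell cannot be told apart.

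The liver is the main site where amino acids lose their nitrogen. Aminotransferases pass the amino group to glutamate and aspartate, and the urea cycle, spread over the mitochondria and cytosol of periportal hepatocytes, turns that nitrogen into urea. The carbon skeletons go through pathways of their own to glucose, ketone bodies, or the citric acid cycle, and several of these enzymes are known to respond to glucocorticoids, glucagon, and fasting. PPARα, the receptor that is absent in the Null mice, is known as a regulator of fatty acid oxidation and also of liver amino acid metabolism.

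The targeted gene and the arrays were checked first. The mean of 3 Ppara probe sets lay between 8.78 and 9.81 in the 15 Null arrays and between 9.93 and 10.77 in the 10 WT arrays of the 3 and 10 mg/kg groups. In the WT 0 mg/kg group it was 10.62, 10.45, and 10.33 in replicates 1 to 3 and 8.66 and 8.74 in replicates 4 and 5. The libraries labeled WT 0 mg/kg replicates 4 and 5 thus read like Null arrays for this gene. Cyp2b10, a drug-metabolizing enzyme, read 8.23, 7.87, and 8.30 in replicates 1 to 3 of that group and 12.55 and 12.99 in replicates 4 and 5, where the 20 arrays of PFOS-treated mice lay between 10.44 and 13.14. Cyp4a14, a PPARα target, read 12.20 in Null 0 mg/kg replicate 4 and between 5.33 and 9.19 in the other 4 arrays of its group. The 2 doubted WT libraries were kept as labeled. The counts and the genes called against the WT 0 mg/kg group are given with and without them. The 8 hepatocyte markers measured averaged 13.84 to 13.98 in the 6 groups, and the 3 cholangiocyte and 3 pancreas markers averaged 5.62 to 5.70 and 6.10 to 6.34, near the 5.65 limit of the filter. The signal of 3′ over 5′ probe sets, a sign of RNA quality, lay between 0.07 and 0.22 for Gapdh and between 0.33 and 0.52 for Actb over all arrays.

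In WT mice, 10 mg/kg PFOS lowered 16 of the 37 genes and raised 0. The genes that fell came from 7 of the 8 pathway groups, and none came from the branched-chain group. They were Cps1, Otc, Ass1, and Arg1 of the urea cycle; Got1 and Gpt, the aminotransferases of aspartate and alanine; Tat, Hgd, and Fah of tyrosine breakdown; Tdo2 and Kynu of tryptophan breakdown; Cbs and Cdo1 of sulfur amino acid metabolism; Hal of histidine breakdown; and Agxt and Prodh, which act on glyoxylate and proline. The largest fall was in Got1, by 1.24 (SE 0.22, n = 5 and 5, limma adjusted p = 0.00277), a 2.36-fold lower level.

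Of all genes tested, 13.1% were called in that comparison, with 5.54% called lower and 7.53% called higher. The median change of the 37 genes was -0.24, against -0.00 over all genes tested, and 32 of 37 changes were negative, against 6200 of 12156. For 14 of the 37, all 5 arrays at 10 mg/kg lay below all 5 arrays at 0 mg/kg, which was so for 3.54% of all genes. The changes were small, and 5 of the 16 reached a 1.5-fold difference, namely Got1, Prodh, Ass1, Hgd, and Kynu. Without the 2 doubted arrays 19 genes fell and 0 rose, while 29.2% of all genes were called, and the median change of the 37 was -0.33. The 2 sets of calls shared 14 genes. Ass1 and Tat were lost without those arrays (-0.49 and -0.39, adjusted p = 0.0633 and 0.0939), and Glud1, Mat1a, Uroc1, Amdhd1, and Ftcd were gained.

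**Figure D1:**
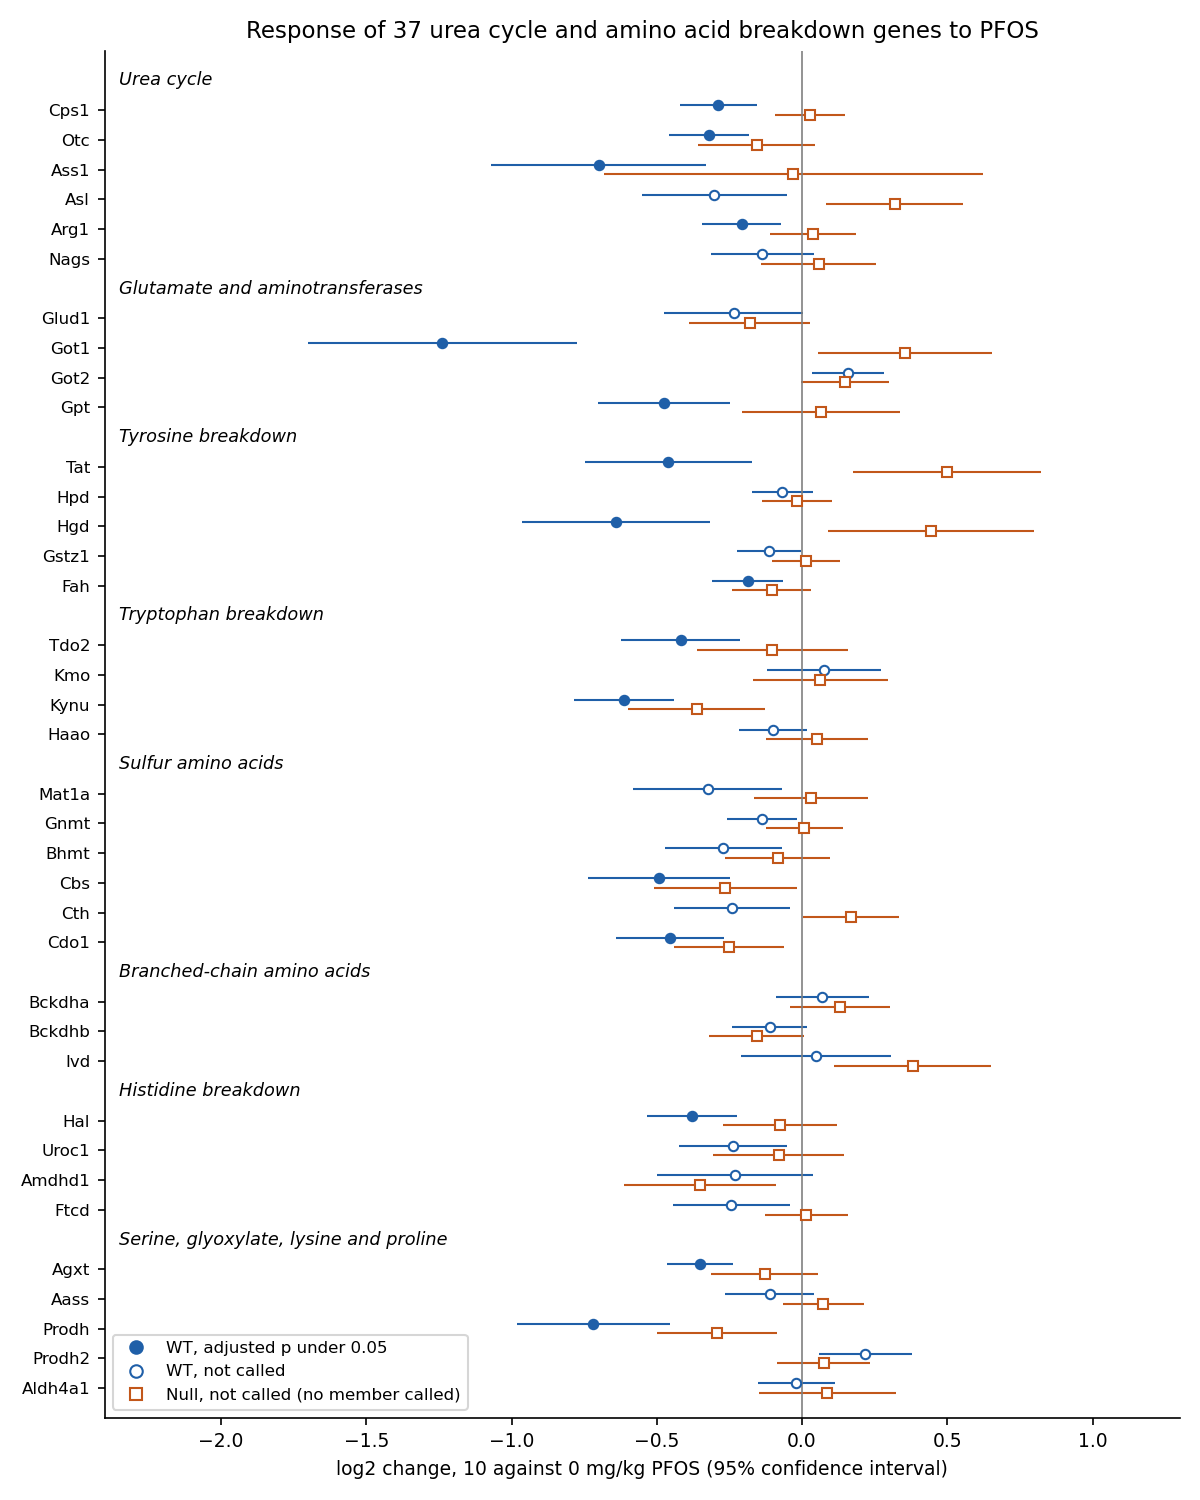
The log2 change between 10 and 0 mg/kg PFOS (horizontal axis) of each of the 37 measured genes, by pathway group, in WT (blue circles) and Null mice (orange squares); bars are 95% confidence intervals of the limma fit (5 arrays against 5) and filled symbols passed an adjusted p of 0.05. In WT mice 16 genes lie to the left of 0 with filled symbols, and no symbol of the Null mice is filled.

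The means over each pathway group show the same split. In WT mice the 6 urea cycle genes averaged 11.71, 11.60, 11.63, 11.67, and 11.72 in the arrays at 0 mg/kg and 11.27, 11.30, 11.37, 11.37, and 11.39 at 10 mg/kg. Every array at 10 mg/kg lay below every array at 0 mg/kg in 6 of the 8 pathway groups. The histidine group overlapped, with 3 of 5 arrays at 10 mg/kg below the lowest at 0 mg/kg, and so did the branched-chain group, whose mean was 10.98 at either dose. In Null mice no group mean separated from its control in this way.

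**Figure D2:**
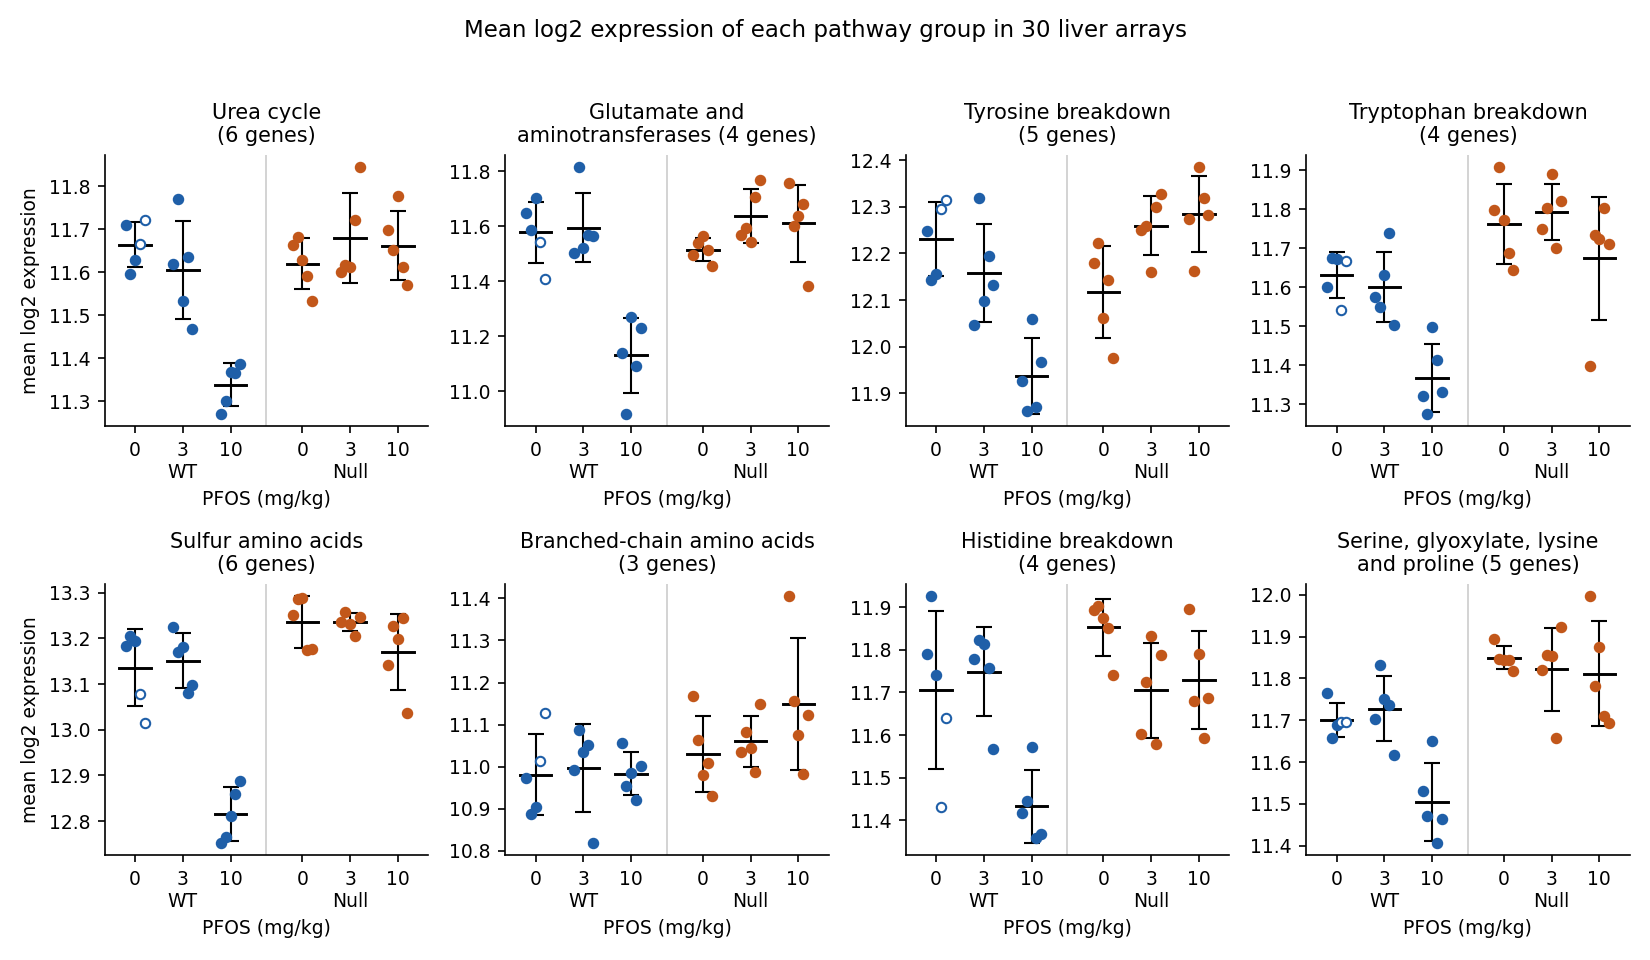
Mean log2 expression over the genes of each pathway group (vertical axes, different ranges) against PFOS dose in mg/kg, 1 point per array, with the mean and SD of 5 arrays; open circles are the libraries labeled WT 0 mg/kg replicates 4 and 5. In 6 of the 8 panels every WT 10 mg/kg point lies below every WT 0 mg/kg point, and in the branched-chain and histidine panels they overlap.

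The genes described array by array below are those called against 0 mg/kg within a genotype or in the difference between the genotypes' responses, up to the 3 with the smallest p in each group. The promoters of 3 of them are shown first. Got1, Hgd, and Tat had the largest differences between the genotypes' responses, and their promoters (RefSeq, GRCm38.p6, 250 bases before to 50 bases after the start of transcription, gene strand, 5′ to 3′) are printed with each match to AGGTCA in capitals on either strand (TGACCT on the other). AGGTCA is the core sequence that PPARα and many other nuclear receptors bind in pairs.
Got1, chr19:43524556-43524855, minus strand: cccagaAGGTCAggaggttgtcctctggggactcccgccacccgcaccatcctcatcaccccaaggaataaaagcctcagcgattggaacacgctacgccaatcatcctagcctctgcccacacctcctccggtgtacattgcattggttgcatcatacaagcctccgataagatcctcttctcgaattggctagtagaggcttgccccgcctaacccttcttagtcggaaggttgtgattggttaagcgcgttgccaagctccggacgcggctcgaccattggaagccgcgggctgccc
Hgd, chr16:37579903-37580202, plus strand: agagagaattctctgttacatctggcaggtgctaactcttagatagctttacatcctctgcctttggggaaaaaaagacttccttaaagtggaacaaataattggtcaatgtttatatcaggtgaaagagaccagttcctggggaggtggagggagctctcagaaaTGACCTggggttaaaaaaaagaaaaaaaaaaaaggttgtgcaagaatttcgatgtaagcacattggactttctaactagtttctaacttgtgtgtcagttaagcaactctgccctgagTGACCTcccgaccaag
Tat, chr8:109990186-109990485, plus strand: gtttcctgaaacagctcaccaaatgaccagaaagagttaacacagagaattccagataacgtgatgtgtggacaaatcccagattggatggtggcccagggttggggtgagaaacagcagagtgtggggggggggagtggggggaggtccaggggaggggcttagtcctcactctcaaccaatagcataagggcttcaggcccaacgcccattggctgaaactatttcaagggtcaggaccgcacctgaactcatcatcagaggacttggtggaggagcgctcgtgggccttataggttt
The Got1 window holds 1 match, the Hgd window 2, and the Tat window none of these letters.

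Promoters were at hand for 30 of the 41 genes, in 32 windows. AGGTCA stood in 13 of the 32 (40.6%), against 16.3% of all 32851 promoters of that length. These 13 included Got1, Hgd, and Tdo2, which fell in WT mice. Agxt, Ass1, Cbs, Fah, Hal, Otc, Prodh, and Tat also fell, and their windows held no AGGTCA. The other genes of the 13 were Aass, Bckdhb, Bhmt, Gnmt, Got2, Haao, Nags, Prodh2, and Uroc1, and Acmsd, which was not tested. With all arrays, none of those tested was called in WT mice at the higher dose against the controls. Whether AGGTCA goes with the fall was not tested. The direct repeat AGGTCANAGGTCA, which contains that core 2 times, stood in 0 of the 32 windows and in 0.0396% of all promoters. The glucocorticoid receptor's inverted repeat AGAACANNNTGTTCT also stood in 0 windows, against 0.00913% of all promoters. The cyclic AMP response core TGACG stood in 5 of the 32 (15.6%), against 20.8% of all promoters. These are matches of letters on either strand, counted once per window, and say nothing of binding.

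Within the urea cycle, Cps1 makes the carbamoyl phosphate that enters the cycle and Otc joins it to ornithine. Cps1 read 13.62, 13.62, 13.59, 13.41, and 13.50 in the WT arrays at 0 mg/kg and 13.18, 13.18, 13.32, 13.31, and 13.31 at 10 mg/kg. The 2 sets did not overlap, and Cps1 fell by 0.29 (SE 0.06, adjusted p = 0.0106). Otc read 12.81, 12.88, 12.73, 12.65, and 12.79 at 0 mg/kg and 12.39, 12.35, 12.59, 12.50, and 12.44 at 10 mg/kg. It fell by 0.32 (SE 0.06, adjusted p = 0.00743), again without overlap. Of the other 2 Otc probe sets, neither passed the test (changes of -0.21 and -0.28, adjusted p = 0.228 and 0.0796). With the 2 doubted arrays left out, Cps1 fell by 0.35 (adjusted p = 0.0024) and Otc fell by 0.35 (adjusted p = 0.0042).

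Ass1, which joins citrulline to aspartate, fell by 0.70 (adjusted p = 0.0218), but on a weak probe set with a mean of 7.12, the only one that lists Ass1 alone. Without the library WT 10 mg/kg replicate 2 its adjusted p was 0.0528. Arg1, which splits off urea in the last step, fell by 0.21 (adjusted p = 0.0488). Its call held when WT 0 mg/kg replicate 4 or 5, WT 3 mg/kg replicate 2, or WT 10 mg/kg replicate 3 was left out and was lost without any other single WT array (adjusted p up to 0.121). With both doubted arrays left out it fell by 0.26 (adjusted p = 0.0171). Asl, which releases fumarate and arginine, did not pass the test in WT mice (change of -0.30, adjusted p = 0.109). Nags, which makes the activator of Cps1, had a change of -0.14 (adjusted p = 0.298).

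Got1, the cytosolic aspartate aminotransferase, stood apart from its mitochondrial partner Got2. Got1 read 12.61, 12.10, 12.60, 12.77, and 12.60 in WT arrays at 0 mg/kg, 12.21, 12.93, 12.55, 12.40, and 12.44 at 3 mg/kg, and 11.38, 10.37, 11.80, 11.29, and 11.66 at 10 mg/kg. The 10 mg/kg arrays lay below all others, with replicate 2 lowest, and Got1 fell by 1.01 to 1.36 with any single WT array left out. Without the 2 doubted arrays it fell by 1.14 (adjusted p = 0.00653). Got2 changed by 0.16 in the same arrays (adjusted p = 0.0927).

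Gpt, the alanine aminotransferase, read 9.08, 9.34, 9.47, 9.10, and 8.78 at 0 mg/kg and 8.54, 8.72, 8.71, 8.67, and 8.77 at 10 mg/kg in WT mice. It fell by 0.47 (SE 0.11, adjusted p = 0.0138), and by 0.62 (adjusted p = 0.000713) without the 2 doubted arrays. The brighter Gpt probe set (mean of 12.33 against 9.02) did not pass the test, with a change of -0.14 (adjusted p = 0.206). Glud1, the glutamate dehydrogenase that frees ammonia, had a change of -0.24 (adjusted p = 0.182), and of -0.44 (adjusted p = 0.00157) without the 2 doubted arrays.

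Of the tyrosine enzymes, Tat takes the first step, Hgd opens the ring of homogentisate, and Fah takes the last step. Hgd read 9.06, 9.01, 9.01, 9.69, and 9.65 in WT arrays at 0 mg/kg and 8.52, 8.49, 8.88, 8.67, and 8.65 at 10 mg/kg. It fell by 0.64 (SE 0.15, adjusted p = 0.0176), and by 0.38 (adjusted p = 0.0393) without replicates 4 and 5, which were its highest control arrays. A brighter Hgd probe set (mean of 13.00) fell by 0.23 (adjusted p = 0.0281).

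Tat read 13.02, 12.57, 12.72, 12.90, and 13.00 at 0 mg/kg and 12.41, 12.13, 12.55, 12.18, and 12.63 at 10 mg/kg in WT mice, where the highest treated array lay above the lowest control. It fell by 0.46 (adjusted p = 0.0426). The Tat call held without WT 0 mg/kg replicate 2, WT 3 mg/kg replicates 1, 2, or 3, or WT 10 mg/kg replicates 3 or 5, and was lost without any other single WT array (adjusted p up to 0.109). Fah read 12.84, 12.77, 12.84, 12.70, and 12.67 at 0 mg/kg and 12.65, 12.56, 12.67, 12.52, and 12.50 at 10 mg/kg. It fell by 0.19 (adjusted p = 0.0486), a call that held when WT 0 mg/kg replicate 4 or 5 or WT 10 mg/kg replicate 3 was left out and was lost without any other single WT array (adjusted p up to 0.12). With both doubted arrays left out Fah fell by 0.24 (adjusted p = 0.0151). Hpd and Gstz1, the enzymes of the steps between, had changes of -0.07 and -0.11 and were not called.

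Tryptophan breakdown starts with Tdo2, and Kynu cleaves kynurenine and its hydroxylated form further on. Kynu had the smallest adjusted p of the 37 genes in WT mice. It read 10.81, 10.84, 10.91, 10.75, and 10.68 at 0 mg/kg and 10.01, 10.15, 10.30, 10.38, and 10.09 at 10 mg/kg, a fall of 0.61 (SE 0.08, adjusted p = 0.000272). Tdo2 read 11.92, 12.18, 12.10, 11.99, and 12.17 at 0 mg/kg and 11.61, 11.38, 11.73, 11.76, and 11.81 at 10 mg/kg, and fell by 0.42 (SE 0.10, adjusted p = 0.0149). Its 2 other probe sets had changes of -0.33 (adjusted p = 0.0116) and -0.13 (adjusted p = 0.152). When the 2 doubted arrays were left out, Kynu fell by 0.67 (adjusted p = 0.000303) and Tdo2 fell by 0.41 (adjusted p = 0.0188). Kmo and Haao, the enzymes on either side of Kynu, had changes of 0.07 and -0.10 and were not called.

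Cbs joins homocysteine to serine, and Cdo1 oxidizes cysteine on the way to taurine and sulfate. Cdo1 read 13.63, 13.69, 13.64, 13.38, and 13.24 in WT arrays at 0 mg/kg and 12.97, 12.98, 12.99, 13.17, and 13.19 at 10 mg/kg. It fell by 0.45 (SE 0.09, adjusted p = 0.00526). Cbs read 11.68, 12.02, 11.91, 11.46, and 11.27 at 0 mg/kg and 11.16, 11.26, 11.08, 11.23, and 11.13 at 10 mg/kg, and fell by 0.49 (SE 0.12, adjusted p = 0.0162). In both genes the libraries labeled WT 0 mg/kg replicates 4 and 5 were the lowest of the controls, and without them Cdo1 fell by 0.59 and Cbs fell by 0.69 (adjusted p = 0.000142 and 0.000122). Mat1a, Gnmt, and Bhmt, which make and use S-adenosylmethionine and homocysteine, and Cth, which splits cystathionine, had changes of -0.33, -0.14, -0.27, and -0.24 and were not called. Mat1a was called without the 2 doubted arrays (-0.47, adjusted p = 0.0108).

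Hal, which removes ammonia from histidine, read 12.04, 12.24, 11.98, 11.82, and 11.93 at 0 mg/kg and 11.62, 11.56, 11.77, 11.58, and 11.59 at 10 mg/kg in WT mice. It fell by 0.38 (SE 0.07, adjusted p = 0.00528). The next 3 enzymes of histidine breakdown, Uroc1, Amdhd1, and Ftcd, had changes of -0.24, -0.23, and -0.24 and were not called. All 4 histidine genes were called lower without the 2 doubted arrays, and Hal then fell by 0.46 (adjusted p = 0.000865).

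Agxt, which turns glyoxylate into glycine, read 12.46, 12.51, 12.43, 12.40, and 12.30 at 0 mg/kg and 12.01, 12.09, 12.07, 12.11, and 12.06 at 10 mg/kg. It fell by 0.35 (SE 0.05, adjusted p = 0.000976). Prodh, the proline dehydrogenase, read 11.66, 11.15, 11.57, 11.35, and 11.26 at 0 mg/kg and 10.75, 10.53, 11.02, 10.53, and 10.56 at 10 mg/kg. It fell by 0.72 (SE 0.12, adjusted p = 0.00257), a 1.64-fold lower level. Leaving out the 2 doubted arrays, Agxt fell by 0.40 (adjusted p = 0.00046) and Prodh fell by 0.78 (adjusted p = 0.00222). Prodh2, the dehydrogenase of hydroxyproline, had a change of 0.22 (adjusted p = 0.0746), and Aass, of lysine breakdown, of -0.11 (adjusted p = 0.336). Bckdha and Bckdhb, subunits of the branched-chain keto acid dehydrogenase, and Ivd, of leucine breakdown, had changes of 0.07, -0.11, and 0.05 and were not called. Dbt, another subunit of that dehydrogenase and outside the 37 genes, fell and is described with the companion genes.

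At 3 mg/kg in WT mice none of the 37 genes was called by limma (0.247% of all genes were called). The methods' t-test with adjusted p also called 0, and 2 genes, Got2 and Aass, had an unadjusted p under 0.05, as did 804 of all 12156. The median change was -0.01. None was called (0.987% of all genes) when the 2 doubted arrays were left out, and 4 had an unadjusted p under 0.05 (1685 of all 12156). Between 3 and 10 mg/kg, 10 genes fell and 0 rose (6.68% of all genes were called, 2.91% lower and 3.77% higher), and the median change was -0.25. The 10 were Cps1, Arg1, Got1, Kynu, Cbs, Cdo1, Hal, Agxt, Aass, and Prodh. Got1, Kynu, Cbs, Hal, and Agxt kept that call with any single WT array left out. The count was 5 without WT 3 mg/kg replicates 1 or 2 or WT 10 mg/kg replicates 1 or 2, and 6 without WT 3 mg/kg replicate 3 or WT 10 mg/kg replicate 5. Without the 2 doubted arrays it was 17 (14.1% of all genes). Those arrays enter that count only through the estimate of the spread and the choice of probe set per gene. The 2 comparisons share the WT 10 mg/kg arrays.

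In Null mice none of the 37 genes was called at either dose. At 3 mg/kg the median change was 0.02, with 5.15% of all genes called, and 2 genes, Tat and Amdhd1, had an unadjusted p under 0.05 (2611 of all 12156). At 10 mg/kg the median change was also 0.02, with 9.1% of all genes called (4.14% higher and 4.96% lower), and 11 genes had an unadjusted p under 0.05, 6 of them higher (3264 of all 12156, 1551 of them higher). The methods' t-test with adjusted p called 0 at either dose. The limma count at 10 mg/kg was 1 without Null 0 mg/kg replicate 1 or Null 10 mg/kg replicate 1, 2 without Null 10 mg/kg replicate 3, and 3 without Null 3 mg/kg replicate 4. Between 3 and 10 mg/kg, 0 genes were called by either test (0% of all genes) and 0 had an unadjusted p under 0.05 (1300 of all 12156).

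The smallest p values in Null mice at 10 mg/kg were those of Tat, Kynu, Prodh, Ivd, and Asl. Tat read 12.90, 12.84, 12.50, 12.46, and 11.93 at 0 mg/kg and 13.15, 12.77, 13.21, 13.22, and 12.78 at 10 mg/kg, a change of 0.50 (95% confidence interval 0.18 to 0.82, adjusted p = 0.0587). Kynu had a change of -0.36 (interval -0.60 to -0.13, adjusted p = 0.0596) and Prodh of -0.29 (adjusted p = 0.0817). The genes nearest the threshold thus lay on both sides of 0. Asl read 12.42, 12.58, 12.43, 12.39, and 12.44 at 0 mg/kg and 13.10, 12.77, 12.70, 12.60, and 12.66 at 10 mg/kg, without overlap (4.14% of all genes, in that direction), and had a change of 0.32 (adjusted p = 0.0968). Cdo1 was the only gene whose 10 mg/kg arrays all lay below the controls, with a change of -0.25 (adjusted p = 0.103), and 5.03% of all genes did so.

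The difference between the genotypes' responses was tested directly. At 10 mg/kg it was called in 5 genes, Got1, Hgd, Tat, Asl, and Cps1, each with a higher change in Null than in WT mice, and in 0 genes the other way (3.78% of all genes were called, 0.749% higher and 3.03% lower). The median difference of the 37 genes was 0.20, against 0.01 over all genes, and 32 of 37 were positive. Got1 differed by 1.59 (SE 0.27, adjusted p = 0.00138). In Null mice Got1 read 12.10, 12.51, 12.77, 12.29, and 11.98 at 0 mg/kg and 13.01, 12.66, 12.52, 12.72, and 12.52 at 10 mg/kg, a change of 0.36 (adjusted p = 0.144), where WT mice showed the fall given above.

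Hgd differed by 1.09 (SE 0.24, adjusted p = 0.0117) and Tat by 0.96 (SE 0.21, adjusted p = 0.0136). In Null mice Hgd read 8.73, 9.06, 8.59, 9.01, and 8.76 at 0 mg/kg and 8.79, 9.01, 9.50, 9.27, and 9.79 at 10 mg/kg, a change of 0.45 (adjusted p = 0.122). The brighter Hgd probe set differed by 0.26 and was not called (adjusted p = 0.0987). Asl differed by 0.62 (SE 0.17, adjusted p = 0.0381), with single-gene changes that passed the test in neither genotype. The Asl call was lost without the 2 doubted arrays (0.55, adjusted p = 0.0847), and without any 1 of 11 of the 30 arrays (adjusted p up to 0.0759).

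Cps1 differed by 0.32 (SE 0.08, adjusted p = 0.0196). In Null mice Cps1 read 13.53, 13.45, 13.58, 13.53, and 13.40 at 0 mg/kg and 13.53, 13.56, 13.52, 13.51, and 13.52 at 10 mg/kg, a change of 0.03 with a 95% confidence interval of -0.09 to 0.15. Without the 2 doubted arrays 5 genes were again called (5.33% of all genes), 4 of them shared, and Gpt took the place of Asl (0.68, adjusted p = 0.027). The 4 shared differences were then 1.49 for Got1, 0.83 for Hgd, 0.89 for Tat, and 0.38 for Cps1. At 3 mg/kg the difference in response was called in 0 genes (1.23% of all genes). The methods' t-test called 0 there, and 2 genes, Tat and Amdhd1, had an unadjusted p under 0.05 (2041 of all 12156). With the 2 doubted arrays left out, limma called 0 (0.214% of all genes), and 2 had an unadjusted p under 0.05 (1971 of all 12156). The 12 other genes that fell in WT mice were not called in this difference at 10 mg/kg on the probe set that stands for each, with all arrays. For Kynu the difference was 0.25 (interval -0.03 to 0.54) and for Cdo1 0.20 (interval -0.05 to 0.46). For Gpt it was 0.54 (limma adjusted p = 0.0828), but the brighter Gpt probe set differed by 0.34 and passed the test (adjusted p = 0.0412).

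**Figure D3:**
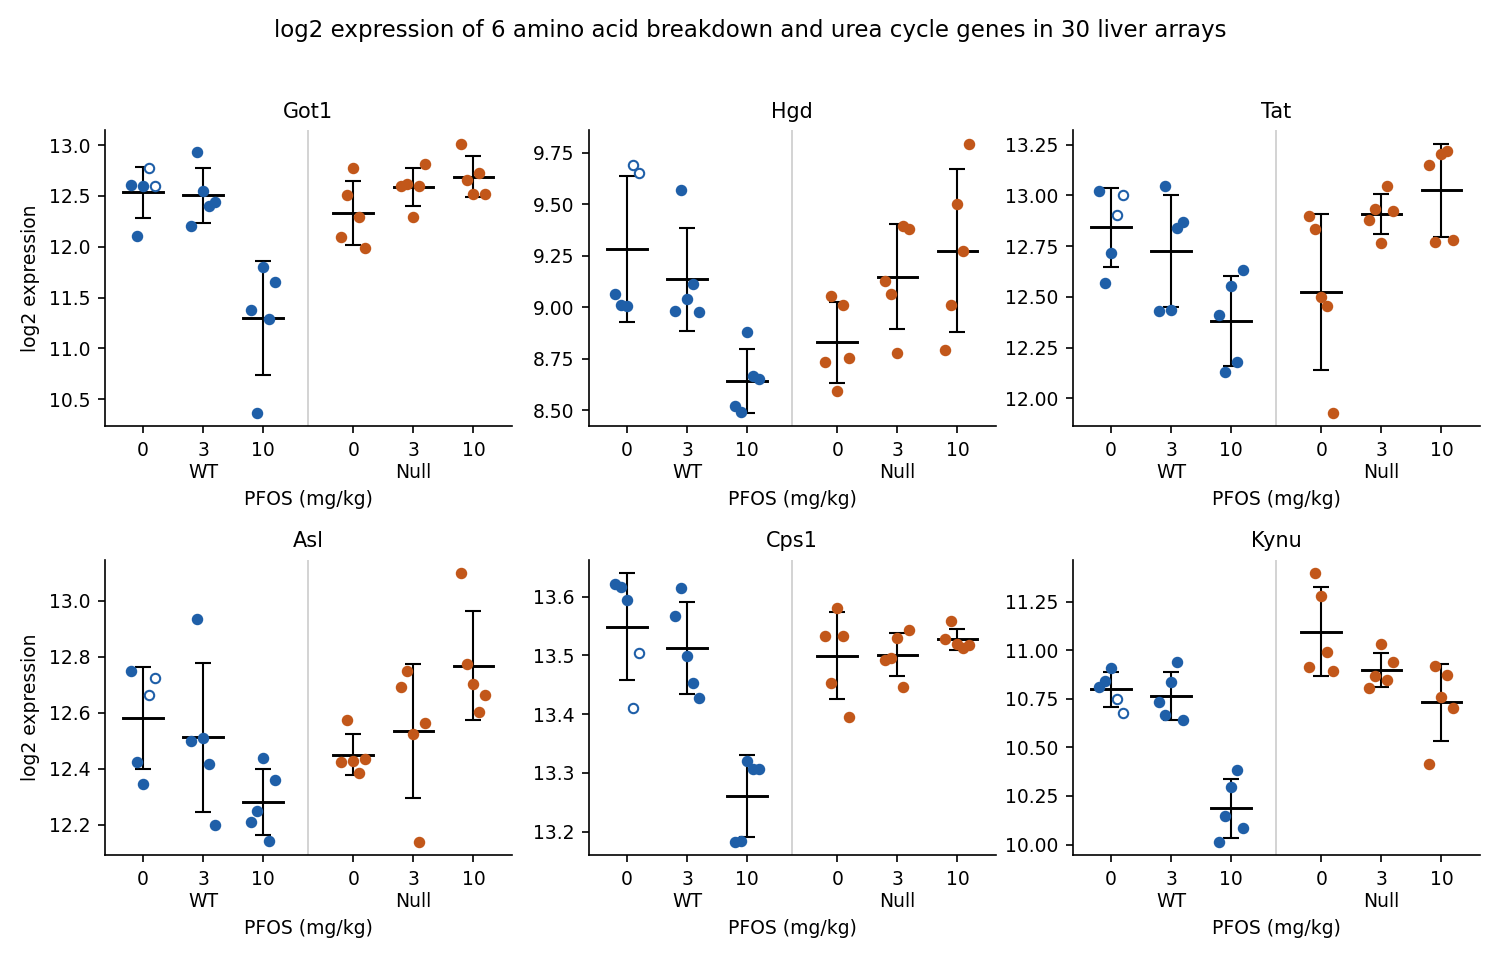
log2 expression (vertical axes, different ranges) of the 5 genes whose response to 10 mg/kg differed between genotypes and of Kynu, against PFOS dose in mg/kg, 1 point per array, with the mean and SD of 5 arrays; open circles are the libraries labeled WT 0 mg/kg replicates 4 and 5. Got1 drops to between 10.37 and 11.80 in WT mice at 10 mg/kg and stays between 12.52 and 13.01 in Null mice, and Kynu reads 10.01 to 10.38 in WT and 10.41 to 10.92 in Null mice at 10 mg/kg.

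The genotypes were also compared at the same dose. At 0 mg/kg 0 of 37 were called by limma or by the methods' t-test (1.58% of all genes by limma), and 8 had an unadjusted p under 0.05 (2068 of all 12156). The mean of the serine, glyoxylate, lysine, and proline group lay between 11.82 and 11.89 in the Null arrays and between 11.66 and 11.77 in the WT arrays, without overlap. Leaving out the 2 doubted arrays, 0 genes were called (2.27% of all genes), and 4 had an unadjusted p under 0.05 (1858 of all 12156). At 3 mg/kg Prodh (0.48, adjusted p = 0.00808) and Tdo2 (0.40, adjusted p = 0.0240) were higher in Null mice, and 11% of all genes were called (5.88% higher and 5.09% lower). That count was 1 without Null 3 mg/kg replicate 2 or 5 or WT 3 mg/kg replicate 5, and 4 without Null 3 mg/kg replicate 4. At 10 mg/kg 21 of 37 genes were higher in Null than in WT mice and 0 were lower (14.1% of all genes were called, 6.32% higher and 7.83% lower). The median difference was 0.30, against 0.01 over all genes, and the groups did not overlap for 12 genes (3.84% of all genes, in that direction).

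The 21 genes were led by Got1 (1.39), Prodh (0.76), Tat (0.64), Hgd (0.63), Kynu (0.55), and Hal (0.53). They also held 5 of the 6 sulfur genes, with Mat1a at 0.48 (adjusted p = 0.00367) and Cth at 0.47 (adjusted p = 0.000374), which were not called within WT mice. Of the 16 genes that fell in WT mice, 13 were among them, but the 2 comparisons share the WT 10 mg/kg arrays. A fit of the 2 groups' own 10 arrays called 12 genes in place of 21. The calls lost in that fit were Nags, Gpt, Gstz1, Fah, Tdo2, Bhmt, Cbs, Cdo1, and Ftcd, so that Mat1a and Cth alone of the sulfur genes kept theirs. With all groups in the fit, Cbs and Cdo1 each lost the limma call without any 1 of 6 arrays (adjusted p up to 0.0678 and 0.0946).

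Genes that work beside these enzymes were read from further lists. Their counts stand beside 915 higher and 674 lower of all 12156 genes in WT mice at 10 mg/kg (1712 and 1837 without the 2 doubted arrays) and 503 higher and 603 lower in Null mice, and lists this short allow no more than a description. In WT mice at 10 mg/kg 0 of 12 nitrogen-handling genes rose and 3 fell, namely Slc1a2, a glutamate transporter of pericentral hepatocytes (-0.90, adjusted p = 0.00254), Oat, the ornithine aminotransferase (-0.42, adjusted p = 0.00532), and Slc25a15, the mitochondrial ornithine carrier (-0.35, adjusted p = 0.00792). Without the 2 doubted arrays 1 rose and 4 fell, and these changes were -0.93, -0.35, and -0.39, all called. In Null mice 2 rose and 1 fell. Slc7a2, a carrier of arginine and lysine, read 7.62, 7.61, 7.49, 7.44, and 7.25 at 0 mg/kg and 8.01, 8.03, 8.14, 7.92, and 8.16 at 10 mg/kg in Null mice, and rose by 0.57 (adjusted p = 0.015). At 3 mg/kg it rose by 0.76 in Null mice (limma adjusted p = 0.00479), so that the rise was not larger at the higher dose. Its response to 10 mg/kg differed between genotypes by 1.05 (adjusted p = 0.0213), and by 1.00 (adjusted p = 0.0417) without the 2 doubted arrays. Glul, the glutamine synthetase of pericentral hepatocytes, fell by 0.64 in Null mice (adjusted p = 0.00460), and Slc25a13, the aspartate and glutamate carrier, rose by 0.30 (adjusted p = 0.023). In WT mice Glul had a change of -0.21 (adjusted p = 0.218), and of -0.35 (adjusted p = 0.0346) without the 2 doubted arrays.

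Among 15 sulfur and glycine genes 4 rose and 2 fell in WT mice. Csad, which makes the precursor of taurine from the product of Cdo1, read 9.41, 10.69, 9.72, 10.95, and 10.37 at 0 mg/kg and 11.44, 11.90, 11.32, 11.82, and 11.50 at 10 mg/kg. It rose by 1.37 (SE 0.29, adjusted p = 0.00911), a 2.58-fold higher level, and so moved against Cdo1 in the same arrays. Chdh, the choline dehydrogenase, rose by 0.50 in WT (adjusted p = 0.00404) and by 0.39 in Null mice (adjusted p = 0.0452). Shmt1, the cytosolic serine hydroxymethyltransferase, fell by 0.42 in WT (adjusted p = 0.0412) and by 0.65 in Null mice (adjusted p = 0.00125). It was also called lower in Null mice at 3 mg/kg, by 0.37. With the 2 doubted arrays left out, 5 genes of the list rose and 4 fell in WT mice, with changes of 1.65 for Csad, 0.64 for Chdh, and -0.62 for Shmt1, all called.

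The 20 further branched-chain genes held 2 that rose and 4 that fell in WT mice, and 0 of either in Null mice by limma at 10 mg/kg. Dbt, a further subunit of the branched-chain keto acid dehydrogenase, had the largest fall of the list. It read 10.38, 10.37, 10.43, 10.29, and 10.36 in WT arrays at 0 mg/kg and 9.41, 8.01, 10.22, 9.81, and 9.58 at 10 mg/kg, without overlap and with replicate 2 far below the others. It fell by 0.96 (adjusted p = 0.0359), and by 0.99 (adjusted p = 0.0424) without the 2 doubted arrays. Its change in Null mice was -0.30 (adjusted p = 0.434) and the difference in response 0.66 (adjusted p = 0.383). Auh, of leucine breakdown, fell by 0.38 (adjusted p = 0.0467), and Bckdk, the kinase that inhibits the complex, rose by 0.22 (adjusted p = 0.0474; 0.051 without the 2 doubted arrays). Acadsb, an acyl-CoA dehydrogenase of isoleucine breakdown, fell by 0.48 (adjusted p = 0.0184) and Bcat2, a branched-chain aminotransferase, by 0.38 (adjusted p = 0.0236), while Acat1, a mitochondrial thiolase, rose by 0.44 (adjusted p = 0.0277). Acat1 differed between genotypes by -0.60 (adjusted p = 0.0469). Acadsb fell by 0.55, Bcat2 by 0.53, and Auh by 0.44, all called, when the 2 doubted arrays were left out. Both Acat1 calls were lost without the 2 doubted arrays (adjusted p = 0.0631 and 0.117), and the list's counts were then 0 higher and 6 lower. Of 9 further aromatic genes 1 rose in WT mice, Kyat1 (0.56, adjusted p = 0.0295), and 1 in Null mice, Kyat3 (0.74, adjusted p = 0.0367), both kynurenine aminotransferases. Qprt, which leads from the kynurenine pathway to NAD, changed by -0.03 and -0.04 and was not called. Kyat1 lost its call without the 2 doubted arrays (adjusted p = 0.0592).

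Of 10 genes beside the histidine, serine, lysine, and proline enzymes, 1 rose and 1 fell in either genotype. Pipox, of lysine breakdown, fell by 0.47 in WT mice (adjusted p = 0.00859), or by 0.57 without the 2 doubted arrays, and Grhpr, a glyoxylate reductase, rose by 0.33 (adjusted p = 0.0276; 0.0805 without the 2 doubted arrays). Hao1, the glycolate oxidase that supplies glyoxylate to Agxt, fell by 0.37 in Null mice (adjusted p = 0.00517), and had a change of -0.39 in WT mice (adjusted p = 0.0718), or -0.64 (adjusted p = 0.000187) without the 2 doubted arrays. The list's counts in WT mice were then 2 higher and 3 lower. Srr, the serine racemase, rose by 0.37 in Null mice (adjusted p = 0.0106).

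The amino acid response genes gave a mixed picture. Of 9 genes, Atf4 with its targets and serine synthesis genes, 0 were called in WT mice at 10 mg/kg. Between the genotypes, Atf4 was called higher in Null mice at 0 and 3 mg/kg (0.88 and 0.63) and Asns at 3 mg/kg (1.18). Fgf21 was called lower in Null mice at 3 and 10 mg/kg (-1.33 and -1.62). These calls use all arrays, and 1.58%, 11%, and 14.1% of all genes were called between genotypes at 0, 3, and 10 mg/kg. The Atf4 call at 0 mg/kg rests on the WT group that holds the 2 doubted arrays, and no value without them is given here. In Null mice Asns, the asparagine synthetase, rose by 0.77 (adjusted p = 0.0492) and Sesn2, a stress-induced inhibitor of mTORC1, by 0.44 (adjusted p = 0.022), while Chac1, which degrades glutathione, fell by 0.80 (adjusted p = 0.0297). Asns read 8.35, 8.44, and 9.87 in WT 0 mg/kg replicates 1 to 3 and 11.04 and 10.86 in replicates 4 and 5. Without those 2 arrays Asns rose by 1.00 in WT mice (adjusted p = 0.0278).

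Of a list of 12 genes, regulators of amino acid breakdown with the gluconeogenic genes Pck1 and G6pc, 3 fell in WT mice and 0 were called in Null mice at 10 mg/kg. The list mean changed by -0.20 in WT and by -0.19 in Null mice. Of the arrays at 10 mg/kg, 2 in WT and 3 in Null mice lay below their lowest control. Ppargc1a, a coactivator of the fasting response, read 7.09, 6.36, 6.43, 6.23, and 6.31 in WT arrays at 0 mg/kg and 5.71, 4.59, 5.95, 5.42, and 5.69 at 10 mg/kg. It fell by 1.01 (SE 0.21, adjusted p = 0.00911), to a mean of 5.47, below the 5.65 limit of the filter, so that the size of the fall is not well measured. The paper states that PFOS did not change Ppargc1a expression. By its account neither these arrays nor PCR in a separate set of mice appeared to show a rise. Pck1, the gluconeogenic enzyme used here as a target gene of the fasting response, fell by 0.80 (adjusted p = 0.0298). Hnf4a, a hepatocyte transcription factor, fell by 0.42 (adjusted p = 0.0343). WT 10 mg/kg replicate 2 was the lowest array for Ppargc1a and Pck1, as it was for Got1. The differences between the genotypes' responses were 0.58, 0.87, and 0.29 for these 3 genes and were not called (adjusted p = 0.28, 0.0778, and 0.322). Without the 2 doubted arrays 6 of the 12 genes fell in WT mice (Ppargc1a, Pck1, and Hnf4a by 1.16, 0.90, and 0.62 among them), and the difference for Hnf4a was called (0.50, adjusted p = 0.027).

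**Figure D4:**
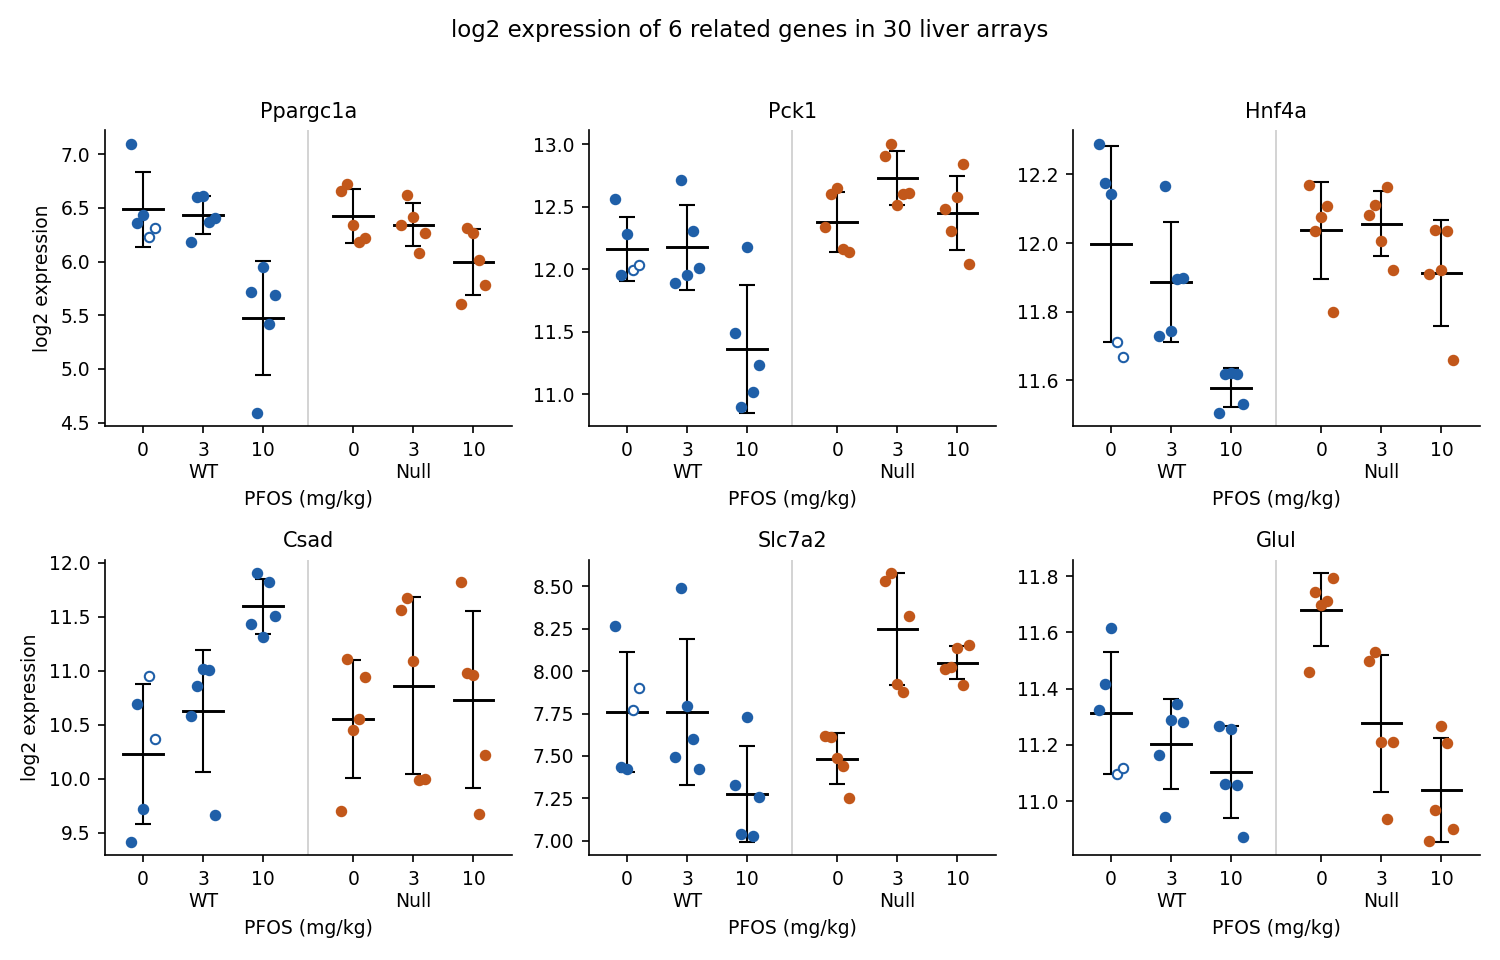
log2 expression (vertical axes, different ranges) of the regulators Ppargc1a and Hnf4a, the gluconeogenic enzyme Pck1, and 3 companion genes (Csad, Slc7a2, Glul) against PFOS dose in mg/kg. Each point is 1 array, with the mean and SD of 5 arrays. Open circles are the libraries labeled WT 0 mg/kg replicates 4 and 5. Ppargc1a lies between 4.59 and 5.95 in WT mice at 10 mg/kg, and Csad between 11.32 and 11.90, above its 0 mg/kg arrays.

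Markers of liver zones and of other cells moved in part with these results, and their part in them was not tested. The 5 periportal markers averaged 11.82 to 12.01 in the WT arrays at 0 mg/kg and 11.39 to 11.58 at 10 mg/kg, and 3 fell (Hal, Pck1, and Ass1, which are themselves in the lists above). The 9 pericentral markers averaged 10.47 to 10.61 at 0 mg/kg and 10.16 to 10.42 at 10 mg/kg in WT mice, and 5 fell. Slc1a2 and Oat, among those 5, are also in the nitrogen-handling list above. The marker means of neither zone rose. Of all genes 5.54% fell in that comparison. The counts were 2 periportal and 5 pericentral markers without the 2 doubted arrays, where 29.2% of all genes were called in either direction. The 8 hepatocyte markers gave 0 calls in WT mice, with array means of 13.87 to 13.96 at 0 mg/kg and 13.79 to 13.92 at 10 mg/kg. The 12 Kupffer cell markers gave 0 calls in WT mice, with a median change of -0.33 and array means of 8.21 to 9.46 at 0 mg/kg and 7.96 to 8.70 at 10 mg/kg. In Null mice, where none of the 37 genes was called, 3 pericentral and 3 Kupffer cell markers fell at 10 mg/kg, as did 4.96% of all genes. Of the 9 endothelial, 8 stellate cell, 7 lymphocyte, and 1 red blood cell markers, 1 stellate cell marker fell in WT mice at 10 mg/kg, where 5.54% of all genes fell. Without the 2 doubted arrays 5 endothelial and 3 stellate cell markers fell, where 29.2% of all genes were called in either direction. That share holds rises and falls together, so it is larger than the share that fell. The number of all genes that fell without those arrays is given above with the companion lists.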

How the data were processed

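Liver RNA of WT and Null mice was measured on 1 array per mouse. RMA was used by the authors for background adjustment, quantile normalization, and summary of probes. The deposited table holds log2 expression for 45101 probe sets. The quantile step gives every array nearly the same distribution, and bright probe sets can understate a change. Array medians lay between 5.60 and 5.70.

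Control probe sets (64) were left out. A probe set was kept (24069) where 5 or more of 30 arrays exceeded 5.65, the table's median value. Gene names came from the platform's annotation (34958 with 1 gene, 932 with several, 9211 with none), with symbols updated through the Entrez number for 34754. A probe set that lists Ass1 beside another gene was not used. Where a gene had several probe sets, that of smallest moderated F p (4 comparisons of PFOS with 0 mg/kg together) stands for it, which favors probe sets that changed.

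The test was limma's (version 3.58.1, R 4.3.3; lmFit, eBayes), within a genotype on its 15 arrays and between genotypes on all 30. Benjamini-Hochberg adjustment ran over every kept probe set, with calls at an adjusted p under 0.05. The labels call the arrays of a group biological replicates. The study's own test (unadjusted p of 0.0025, here called the methods' t-test) was an alternative. The study ran it across dose within a strain, and its use between genotypes is an extension made here. The steps were tested on simulated data with known changes. The genes, lists, and alternatives, leaving out 2 arrays included, were chosen with earlier results of these data known. Genes described array by array are the 3 of each group with the smallest p among those called against 0 mg/kg or in the difference of response, and the 3 with the smallest p of each companion list are named. Dbt, Slc25a13, Slc25a15, Oat and other genes named beyond this rule were chosen after their values were seen. Probe set pairs of Gapdh and Actb, promoters from RefSeq, and figures (matplotlib 3.10.9, Python 3.11.15) were read or drawn from the same tables. Precision is limited by there being 5 arrays per group.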

Additional observations from a re-analysis of the deposited data

Results flagged for a closer look

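In each group of 5 arrays the highest and lowest array of each of the 37 genes was set against the others by Dixon's criterion. Of 222 groups 16 held an array set apart, where chance gives about 1 in 20, or 11.1. The arrays with a high value were Asl in Null 0 mg/kg replicate 2 (12.58), Nags in WT 0 mg/kg replicate 2 (10.42), Glud1 in WT 3 mg/kg replicate 2 (12.68) and in Null 0 mg/kg replicate 2 (12.53), Got2 in Null 10 mg/kg replicate 1 (12.68), Hgd in WT 3 mg/kg replicate 2 (9.57), Mat1a in WT 10 mg/kg replicate 3 (13.31), Bckdhb in Null 0 mg/kg replicate 1 (12.19), Amdhd1 in WT 10 mg/kg replicate 2 (10.55), and Aass in WT 10 mg/kg replicate 3 (12.01). The arrays with a low value were Otc in Null 10 mg/kg replicate 1 (12.35), Got1 in WT 0 mg/kg replicate 2 (12.10), Gnmt in WT 3 mg/kg replicate 5 (13.79), Cth in Null 3 mg/kg replicate 4 (12.97), Ftcd in Null 0 mg/kg replicate 3 (12.69), and Aass in Null 3 mg/kg replicate 4 (11.87). No array held more than 2 of the 16. Without WT 10 mg/kg replicate 3 the change of Mat1a was -0.42 (adjusted p = 0.0228), past the threshold that it missed with all arrays.

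The response to 10 mg/kg differed between Null and WT mice by the test of the difference in 5 genes, by 1.59 for Got1, 1.09 for Hgd, 0.96 for Tat, 0.62 for Asl, and 0.32 for Cps1. The changes in Null mice were 0.36, 0.45, 0.50, 0.32, and 0.03, none of them called on its own.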

How the results depend on the processing

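No result on any single gene reversed its direction past the threshold under any alternative. The numbers of genes called changed by more than 1.5 times as follows. For WT 10 against 0 mg/kg (16), the added limit of a 1.5-fold change left 5. For WT 10 against 3 mg/kg (10), the count was 6 with no filter on weak probe sets, 21 with array weights, 1 with the 1.5-fold limit, and 17 without the 2 doubted arrays. For Null 3 against 0 mg/kg (0), array weights gave 1. For Null 10 against 0 mg/kg (0), repeated quantile normalization gave 4, array weights 1, other groups in the fit 2, and the replicate block 1. For the difference in response at 10 mg/kg (5), array weights gave 9. For Null against WT at 3 mg/kg (2), the brightest probe set gave 1, array weights 6, and the 1.5-fold limit 0. For Null against WT at 10 mg/kg (21), a fit of the compared groups alone gave 12 and the 1.5-fold limit 4. With each array left out in turn, the counts ran from 11 to 19 for WT 10 against 0 mg/kg, 5 to 15 for WT 10 against 3 mg/kg, 0 to 3 for Null 10 against 0 mg/kg, 4 to 6 for the difference in response at 10 mg/kg, 1 to 4 for Null against WT at 3 mg/kg, and 16 to 22 at 10 mg/kg, and stayed at 0 for the others. The cause of these shifts was not tested. Replicate numbers share no source in the labels, and of 75 pairs of arrays with the same number 24 correlated above 0.1 (from -0.24 to 0.36), so the numbers did not pair the samples. With the replicate block 13 genes fell for WT 10 against 0 mg/kg and 7 for 10 against 3 mg/kg. The methods' t-test called 16, 8, 5, and 23 genes after adjustment, and 14, 10, 6, and 20 at its unadjusted limit, for WT 10 against 0 and against 3 mg/kg, the difference in response at 10 mg/kg, and Null against WT at 10 mg/kg. The brightest probe set per gene called 14 genes for WT 10 against 0 mg/kg, with Gpt and Tdo2 lost. Apart from leaving out the 2 doubted arrays, no share of all genes called is given for these alternatives, and a setting can move that share too. The counts in this paragraph therefore describe how the calls depend on the settings and are no result about these genes alone. Values give no depth, and 32 of the 37 probe sets had a mean signal in the top 10% of genes, a range where arrays can compress differences.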
